A study of Mus musculus with 4 samples.

Results

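The Calb2+ ventral mature olfactory sensory neurons (OSNs) were 542 of the 9539 mature OSNs that the authors grouped by the expression of genes other than odorant receptors (ORs), and their members are the neurons that the deposited annotation places in the cluster Calb2+ V. The cells came from the main olfactory epithelium of the nasal cavity of 4 resting male C57BL/6 mice (C57BL/6J in the study's methods), 8 weeks old, with 1 library per mouse and no treatment or genetic change. The tissue was dissociated with papain, live nucleated cells were sorted as Hoechst-positive and DRAQ7-negative, and their transcripts were counted as unique molecular identifiers (UMIs) in 10x Chromium 3′ v3.1 libraries. The cluster held 156, 124, 94 and 168 neurons in mice 1 to 4, or 5.97, 5.41, 5.48 and 5.76% of each mouse's clustered mature OSNs (5.65% ± 0.258, SD, n = 4). The comparison throughout was the plain Ventral cluster of the same mice, with 1186, 1133, 750 and 1531 neurons.

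Each mature OSN expresses 1 allele of 1 receptor gene, and the axons of all OSNs with the same receptor gather in a few glomeruli of the olfactory bulb. Receptors of the dorsal and of the ventral epithelium differ, and within each side the neurons also differ in other genes, some of which guide their axons or follow their electrical activity. Calb2 encodes calretinin, an EF-hand protein that binds calcium.

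The labels matched the markers. A Calb2 UMI was found in 542 of 542 cluster neurons, against 10.8% of Ventral neurons. In cells that should lack the gene it was found in 5.70% of horizontal basal cells of the group HBC2 (median depth 7186.5 UMIs), 3.57% of sustentacular cells (5587 UMIs) and 1.36% of microvillar cells of the type Mv2 (5081 UMIs). Calb2 was not particular to the cluster, since immature OSNs had it too. A UMI was found in 80.6% of late (iOSN2) and 87.0% of early (iOSN1) immature OSNs. Their levels were 21.4 and 23.5 per 10000 of all UMIs, against 26.3 in the cluster. Nfix, a transcription factor of ventral OSNs, had a UMI in 82.8% of cluster neurons and 83.3% of Ventral neurons but in 10.1% of the dorsal Calb2+ neurons. Nqo1, an enzyme that marks dorsal OSNs, had a UMI in 5.17% of cluster neurons and in 99.4% of dorsal Calb2+ neurons. Median depth per neuron was 5833, 5031, 6998.5 and 4330 UMIs in the cluster and 5564, 4279, 6628.5 and 4009 UMIs in Ventral neurons. The summed level of the 6 mature OSN markers was 346 to 357 UMIs per 10000 in the cluster and 314 to 324 in Ventral neurons, that of the sustentacular markers 0.120 to 0.284 against 0.142 to 0.211, that of the 5 immune markers 0.0133 to 0.0321 against 0.0286 to 0.0831, and that of the 3 haemoglobin genes 0.149 to 2.17 against 0.104 to 1.17. The 4 immature OSN markers summed to 6.86 to 7.88 against 6.51 to 6.91. Cd36, Cd55 and Dlg2, markers of other OSN subsets, summed to 1.03 to 2.07 against 2.33 to 2.90. The sustentacular genes Ermn and Muc2, the microvillar genes Cftr and Foxi1, the immune genes Ptprc and Ctss, and the basal cell genes Krt5 and Trp63 were at 0 UMIs in the cluster. The part of the remaining markers in the differences below was not tested. No barcode of a cluster neuron occurred in a second library, and 54 of 21755 distinct barcodes did so among all cells.

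The receptor make-up of the cluster was uneven. Receptor genes had been left out when the clusters were drawn, so this make-up was free to vary. Of 798 receptors among the clustered neurons, 87 had at least 1 neuron in the cluster and 24 of these had exactly 1. The most frequent, Olfr728 (chr14:50133758-50142680, GRCm38), had 82 of its 83 neurons there, with 21 of 21, 25 of 25, 8 of 9 and 28 of 28 in mice 1 to 4. Olfr1507 (chr14:52488791-52495749) followed the same pattern, with 39 of 42. Olfr55 (chr17:33168447-33180753) was split, with 44 of 75 in the cluster and 31 in Ventral. These 3 receptors made up 165 neurons, or 30.4% of the cluster.

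Receptors with at least 3 cluster neurons and at least 50% of their clustered neurons in the cluster numbered 35, and they are called the listed receptors here. Their 507 neurons were in the cluster in 399 cases (78.7%), in Ventral in 93 and in the dorsal Calb2+ cluster in 10. For 12 of them every clustered neuron was in Calb2+ V., among which Olfr1184 had most, 15 of 15. Next in size came Olfr1490 with 18 of 25, Olfr972 with 16 of 22, Olfr868 with 15 of 21, Olfr291 with 13 of 17 and Olfr392 with 11 of 21. All 6 of the remaining Olfr972 neurons were in the dorsal Calb2+ cluster, so every neuron of this receptor was in one of the Calb2+ clusters. The limit of 50% cut through a continuum: Olfr392 at 52.4% and Olfr1213 at 53.3% were just inside, Olfr1178 at 47.4% and Olfr1384 at 40.5% just outside. One listed identity was not an OR but Gucy1b2, a subunit of soluble guanylate cyclase, with 4 of 6 neurons in the cluster.

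**Figure D1:**
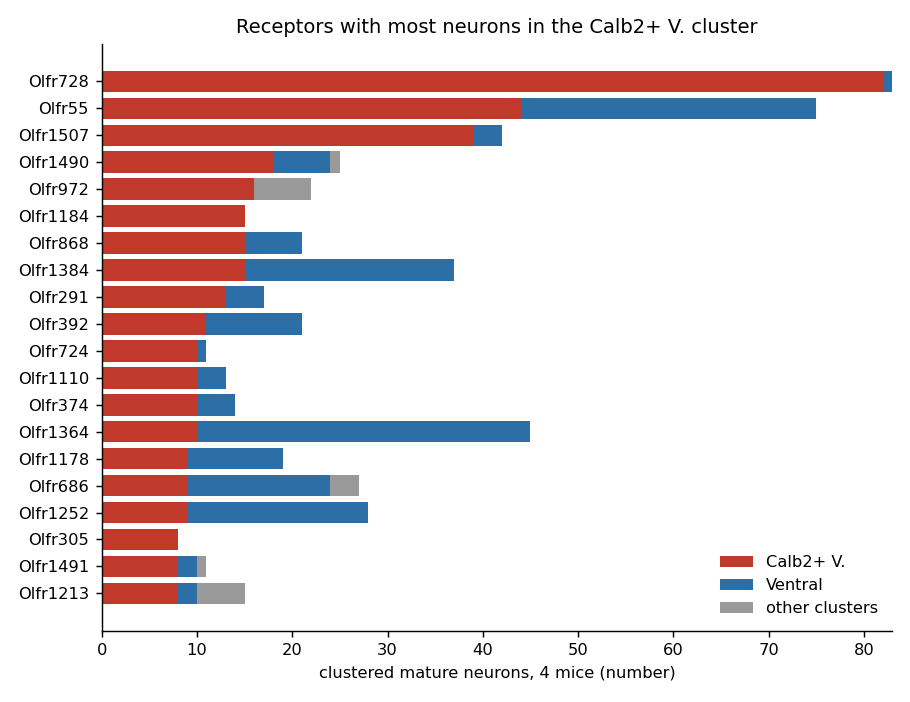
Number of clustered mature OSNs of each receptor, summed over the 4 mice, for the receptors with most Calb2+ V. neurons. Bars are divided by cluster (red, Calb2+ V.; blue, Ventral; grey, other clusters). Olfr728 lies almost wholly in Calb2+ V. (82 of 83), Olfr55 is split (44 and 31), and the grey part of Olfr972 is its 6 neurons of the dorsal Calb2+ cluster.

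Whether a receptor's place carried over between animals was measured by holding out each mouse in turn, choosing the receptors in the other 3 mice by the same 50% rule and counting their neurons in the held-out mouse. Only the choice of receptors was held out, since the authors drew the clusters after integration of all 4 mice. In mice 1 to 4, 83 of 107, 85 of 109, 63 of 93 and 107 of 141 such neurons were in the cluster, or 77.6, 78.0, 67.7 and 75.9%. Among the neurons of all other receptors in the same mice the share was 2.91, 1.78, 1.91 and 2.20%. The held-out share was therefore 74.8% ± 4.79 against 2.20% ± 0.503 (SD, n = 4), higher in 4 of 4 mice, with p = 0.125 by the exact sign-flip permutation test (two-sided), the smallest p that 4 mice allow. Without Olfr728 the difference was 66.7 percentage points in place of 72.6.

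The listed receptors were spread over chromosomes and sequences. They lay on 9 chromosomes, with 11 on chromosome 2 (31.4%, against 29.4% of the 333 receptors with at least 50% of their neurons in Ventral, called the Ventral list), 4 on chromosome 14 (11.4 against 5.71%) and 4 on chromosome 19 (11.4 against 6.61%). Olfr353 and Olfr539, with 3 of 6 neurons in each cluster, were on both lists. Among the 798 receptors with clustered neurons, the nearest on the chromosome was itself listed for 2 of 35 (5.71%), and 5.44% of Ventral-list receptors had a listed neighbour. Sequences too were compared only among receptors with clustered neurons. Median identity of the coding sequences was 51.9% within the list, 51.7% between the list and the Ventral list, and 51.7% within the Ventral list. For 26 of 34 listed receptors with an aligned coding sequence, the receptor of closest sequence had no neuron in the cluster (76.5%), and the same held for 85.7% of the Ventral-list receptors. The closest receptor was itself listed for 8.82% of the list and 5.18% of the Ventral list. In 12 cases that closest receptor was over 90% identical. In these cases 1 of the 195 neurons of the closest receptor was in the cluster. Among neurons of all receptors not picked in the held-out comparison above, the share was 2.20%. The listed receptors of these cases had 144 of 191 neurons there, a share that the rule of the list keeps high, so the 2 counts are not a test.

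The most alike pair was Olfr55 and its neighbour Olfr239 (chr17:33191302-33202506), 98.7% identical with 12 differing positions in 957 coding bases. Olfr55 itself had neurons in both clusters, 44 in Calb2+ V. and 31 in Ventral. Positions 329 to 448 of both coding sequences (GENCODE M21 on GRCm38, plus strand) are shown, because they hold 4 of the 12 differences, in capitals.
Olfr55: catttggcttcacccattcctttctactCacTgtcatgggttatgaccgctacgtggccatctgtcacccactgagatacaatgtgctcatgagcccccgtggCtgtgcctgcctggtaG
Olfr239: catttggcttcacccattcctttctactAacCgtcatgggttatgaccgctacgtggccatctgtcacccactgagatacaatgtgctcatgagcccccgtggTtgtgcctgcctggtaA
Of the 71 Olfr239 neurons, 0 were in the cluster and 70 in Ventral. Reads of such a pair can be split between the genes in counting, so their calls are less certain than those of receptors without a close relative. Other listed receptors also had one: Olfr724 (98.5% identical to Olfr723), Olfr291 (97.5% to Olfr290), Olfr170 (97.4% to Olfr171) and Olfr1196 (97.0% to Olfr1197). In the 44 Olfr55 neurons of the cluster the median was 10.5 Olfr55 UMIs, and 5 of the 44 also had an Olfr239 UMI. Of the 70 Olfr239 neurons in Ventral, 15 had an Olfr55 UMI.

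The chosen receptor itself was on average less abundant in the cluster, which has a different make-up of receptors. Its transcripts were 84.2, 80.8, 81.6 and 83.1 UMIs per 10000 in cluster neurons of mice 1 to 4 and 93.7, 98.5, 96.0 and 98.1 in Ventral neurons, so that the ranges did not overlap. The level was lower by 14.1 ± 3.38 (SD, n = 4) UMIs per 10000 in 4 of 4 mice (exact sign-flip permutation test, two-sided, p = 0.125, the smallest possible). The difference was −8.70 without Olfr728 and −5.68 when each receptor population had equal weight. Olfr55, whose counts are less certain, had 12.4 of its UMIs per neuron in the cluster. Over all cluster neurons the mean was 45.5 receptor UMIs per neuron and over Ventral neurons 49.7 (n = 4), and the difference without Olfr55 was not measured. For 4 receptors with at least 10 neurons in each cluster, the same receptor could be compared in UMIs per neuron. In the cluster and in Ventral these were 12.4 and 12.7 for Olfr55 and 21.5 and 23.4 for Olfr1364. They were 60.5 and 63.5 for Olfr1384 and 71.6 and 90.1 for Olfr392. More than 1 receptor gene with a UMI was found in 22.4, 23.4, 43.6 and 21.4% of cluster neurons and in 33.0, 31.6, 42.7 and 25.5% of Ventral neurons, lower in 3 of 4 mice, with p = 0.25 by the exact sign-flip test. With every neuron thinned to 2500 UMIs the share was lower in 4 of 4 mice, by 5.76 percentage points in place of 5.48 (exact sign-flip test, p = 0.125). A second receptor's UMI in an OSN can come from free RNA or a second cell, and the deposited clusters already exclude neurons with more than 1 receptor above the authors' limit.

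Expression of other genes was compared as UMIs per 10000 UMIs of non-receptor genes, summed over the neurons of a cluster in each mouse. Because the authors drew the cluster from these genes in these neurons, the values that follow are a description and carry no test. Of 3778 genes at 0.5 or more in the higher cluster, 13 were at least 2-fold higher in the cluster in each of the 4 mice (0.344%) and 27 were lower by the same rule (0.715%). The median log2 ratio over all 3778 genes was 0.04, and 98.3% had a mean ratio within 2-fold.

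Of 7 measured genes on the list of calcium-binding proteins, 2 were higher and 2 lower by the 2-fold rule. Calb2 itself (chr8:110137502-110168210) was at 28.3, 27.5, 22.7 and 26.9 in the cluster and 0.785, 0.83, 0.755 and 0.714 in Ventral neurons, 34.2-fold apart. S100a5, an EF-hand protein of OSNs whose expression is known to depend on odour-driven activity, was at 13.3, 9.86, 14.6 and 9.38 in the cluster against 212, 187, 219 and 222. Its mean level was therefore 17.8-fold lower in the cluster (log2 ratio −4.18 ± 0.29, SD, n = 4). Per 10000 of all UMIs it was at 11.8 in the cluster, 13.7 in HBC2 cells, 6.28 in sustentacular and 2.57 in Mv2 cells. The HBC2 level was 40.1 in mouse 2 (61 cells) and 12.5, 11.2 and 8.47 in mice 1, 3 and 4. A UMI of S100a5 was found in 70.7% of cluster neurons, 47.2% of HBC2, 39.9% of sustentacular and 39.3% of Mv2 cells. How much of the level in the cluster was the neurons' own RNA was not tested. Pcp4l1, a small IQ-motif protein related to the calmodulin regulator Pcp4, was at 0.351, 0.450, 0.463 and 0.547 against 14, 14.4, 18.6 and 16.7, 35.2-fold lower in the cluster. Necab3, a further EF-hand protein, was at 1.05 ± 0.117 against 0.312 ± 0.0405 (SD, n = 4). The list holds 34 genes, and the median log2 ratio of the 7 past the level of 0.5 was −0.53.

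Of 29 measured genes on the list of axon guidance and adhesion, 2 were higher and 6 lower by the rule. Kirrel2 and Kirrel3, adhesion molecules of the immunoglobulin superfamily known to be expressed in complementary sets of glomeruli, went opposite ways: Kirrel2 was at 1.57, 1.11, 1.64 and 1.29 in the cluster against 6.76, 7.31, 8.79 and 7.77, and Kirrel3 at 1.19, 1.35, 1.27 and 1.39 against 0.406, 0.353, 0.285 and 0.408. The ephrin ligand Efna5 and the ephrin receptor Epha5 did the same. Efna5 was at 2.22, 2.62, 2.61 and 3.01 against 0.814, 1.14, 0.809 and 1.06, and Epha5 at 1.51, 1.57, 1.81 and 1.79 against 6.10, 5.87, 6.84 and 6.73. No range of these 4 genes overlapped between the clusters. The receptor Epha7 (log2 ratio −2.05 ± 0.28), the leucine-rich repeat membrane protein Lrrc3b (−3.59 ± 0.55), the membrane-anchored semaphorin Sema7a (−1.63 ± 0.15) and the protocadherin Pcdh7 (−1.78 ± 0.45) were also lower in the cluster. The list holds 84 genes, and the median log2 ratio of the 29 past the level was −0.06, near that of all genes.

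**Figure D2:**
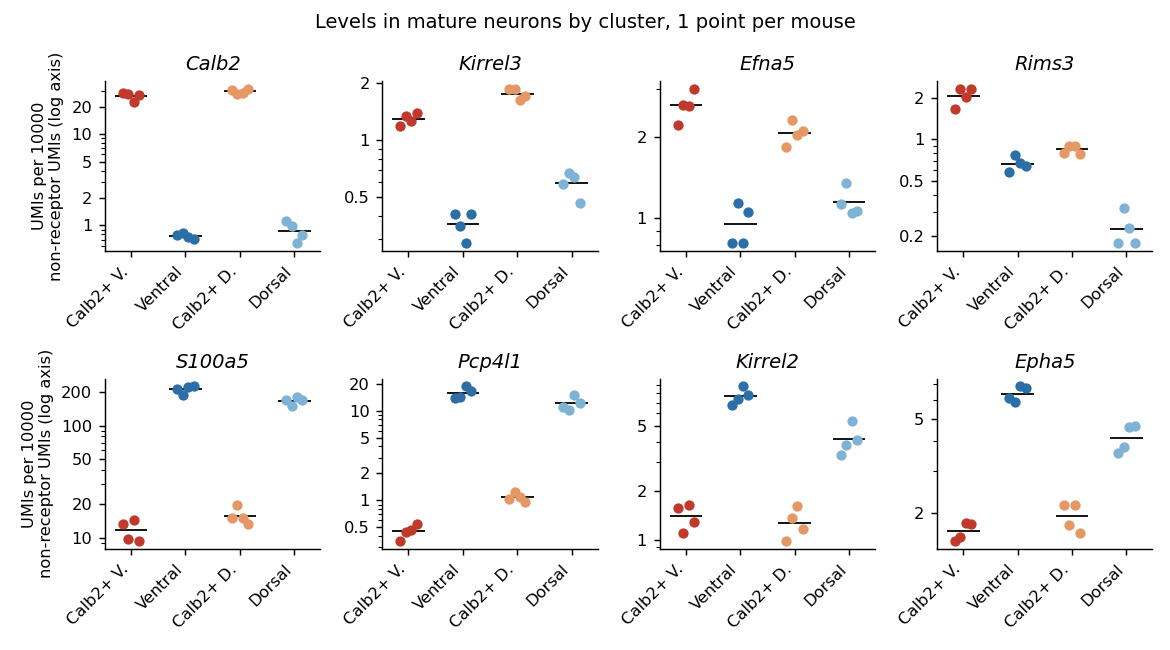
Levels of 8 genes in UMIs per 10000 non-receptor UMIs (log axes), with 1 point per mouse and a line at the mean, in Calb2+ V., Ventral, the dorsal Calb2+ cluster and the Dorsal cluster. In every panel the 4 Calb2+ V. points lie on 1 side of the 4 Ventral points, and the dorsal pair of clusters is apart in the same direction.

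Among genes of synapse and signalling, Rims3, a protein of the presynaptic active zone, was at 1.64, 2.31, 2.00 and 2.31 in the cluster and 0.583, 0.772, 0.675 and 0.639 in Ventral neurons. Both kinds of calcineurin subunit were higher: the catalytic Ppp3ca at 4.15 ± 0.676 against 1.44 ± 0.110 and the regulatory Ppp3r1 at 1.06 ± 0.145 against 0.441 ± 0.0246 (SD, n = 4). Calcineurin is the phosphatase that calcium and calmodulin switch on. The actin-binding Cotl1 (2.20 ± 0.0898 against 0.747 ± 0.0778), the ectonucleotidase Entpd2 (0.826 ± 0.0794 against 0.284 ± 0.0212) and the ETS repressor Etv3 (1.25 ± 0.0920 against 0.478 ± 0.0397) were higher too. Lower in the cluster were the sodium channel subunit Scn4b (log2 ratio −1.70 ± 0.15), the potassium channel subunits Kcnmb3 (−4.23 ± 0.40) and Kcng1 (−4.41 ± 1.29), the sodium-calcium exchanger Slc8a1 (−1.85 ± 0.20) and the scaffold Dlg2 (−2.03 ± 0.09). Of 64 ion channel genes 21 were past the level, with Scn4b and Kcnmb3 lower by the rule (Kcng1 is not on this list) and a median of −0.11. Of 50 presynaptic genes 22 were past it, with 1 lower, Dlg2, and a median of −0.16 (Rims3 is not on this list).

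Most other lists had no gene past the 2-fold rule, which 1.06% of all 3778 genes met, so that lists of this size would hold few or none in any case. Olfactory transduction had 0 of 23 (median log2 ratio 0.04). Its members include the adenylyl cyclase Adcy3, at 13 ± 1.52 against 12.5 ± 0.936, and the channel subunit Cnga2, at 9.26 ± 0.551 against 8.31 ± 0.329. The other counts were 0 of 23 transcription factors of the neuron lineage (median 0.02), 0 of 5 immediate early genes (0.05), 0 of 18 genes of endoplasmic reticulum stress (0.02), 0 of 9 secreted peptides and growth factors (0.02; a list without Avp and Slurp2, described next), 0 of 7 odorant-clearing enzymes (0.04) and 0 of 12 genes of immature neurons and axon growth (0.04). The list of zone and subset markers had 1 higher, Calb2, and 1 lower, Dlg2, of 14. Of 9 measured genes on the list linked to neuronal activity, 2 were higher and 5 lower, with a median of −1.63. That list holds S100a5, Kirrel2, Kirrel3 and Sema7a, which also stand on the other lists.

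A pair of genes rested on few receptors. In the cluster, 71.7% of the UMIs of Slurp2, a secreted Ly6 protein (log2 ratio 2.96 ± 1.01), came from Olfr1507 neurons and 15.7% from Gucy1b2 neurons. Avp, the vasopressin precursor, had 1 UMI in the cluster and 1299 in Ventral, a ratio of 171 of the summed levels (exact 95% interval 30.6 to 6742, counting error only). Of these 1299 UMIs, 93.8% came from 4 receptor populations of Ventral, Olfr1508, Olfr729, Olfr741 and Olfr1346.

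The dorsal pair of clusters, which shares no neuron with the ventral pair, was compared in the same way. The authors drew it in the same clustering and from the same genes, and Calb2 names both Calb2+ clusters. Genes that vary with Calb2 can recur because of how the clusters were made, so the counts are a description. Of 3642 genes past the level there, dorsal Calb2+ neurons had 8 higher (0.220%) and 9 lower (0.247%) than Dorsal neurons by the same rule, and 7 of these 8 and 9 of these 9 were among the 13 and 27 of the ventral pair. Among the 13 higher and 27 lower genes of Calb2+ V., the dorsal ratio had the same sign for 12 and 26, as it did for 66.7% of all 3778 genes. The exceptions were Slurp2 and Avp. S100a5 was at 15.8 ± 2.68 in dorsal Calb2+ neurons against 166 ± 13.6 in Dorsal neurons, and Pcp4l1 at 1.09 ± 0.123 against 12.1 ± 2.14 (SD, n = 4).

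A test on neurons that had no part in drawing the cluster used the late immature OSNs (iOSN2). These were grouped by their most abundant receptor alone: 88 neurons of listed receptors, from 25 receptors, against 390 neurons of receptors on the Ventral list. Mice 1 to 4 had 13, 28, 22 and 25 of the former, with median depths of 6725, 5440.5, 10547 and 5841 UMIs, and 88, 120, 66 and 116 of the latter, with 8267, 6743, 9938 and 5944 UMIs. The lists were taken from mature neurons of the same mice, and the iOSN2 neurons are other cells. Olfr1196 and Olfr291, whose calls are less certain because each has a close relative, led 11 and 8 of the 88 neurons. With the edgeR quasi-likelihood test, mouse as a block and Benjamini-Hochberg adjustment, 48 of 6040 genes were higher in neurons with listed receptors (0.795%) and 102 lower (1.69%), or 2.48% in either direction. The split was 21 higher and 143 lower when low counts were not filtered, and 73 and 95 with library size alone as the scaling.

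Most of the genes described above were called in the same direction. Of the 13 genes higher in mature Calb2+ V. neurons 12 could be tested and 8 rose, and of the 27 lower genes 25 could be tested and 20 fell. All 37 tested had the same sign as in the mature neurons, and none was called in the opposite direction. Calb2 was at 47.6, 38.3, 35.9 and 36.3 in immature neurons with listed receptors and 19.0, 20.5, 16.2 and 16.3 in those with Ventral receptors. It rose by 1.10 ± 0.08 on the log2 scale (SE; edgeR adjusted p = 3.76e-23), against a ratio of 5.09 in mature neurons, since immature neurons with Ventral receptors still had a level far above that of mature Ventral neurons. S100a5 was at 27.3, 2.43, 2.39 and 11 against 162, 166, 155 and 163, and fell by 4.33 ± 0.17 on the log2 scale (SE; edgeR adjusted p = 3.72e-41). This SE is derived from the test statistic of the model, and the 4 values with listed receptors spread far wider among the mice. In both genes the 4 values of one group lay apart from the 4 of the other. Pcp4l1 was at 0.414, 0.278, 0.131 and 0.278 against 7.87, 10.2, 8.79 and 11 (log2 change −5.29 ± 0.19, SE; edgeR adjusted p = 1.72e-44).

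The axon-sorting genes also differed at this stage. Kirrel2 was at 1.35, 1.67, 1.26 and 0.834 against 6.30, 6.88, 7.25 and 6.92 (edgeR adjusted p = 5.60e-29), and Epha5 at 1.66, 1.11, 1.57 and 1.60 against 4.57, 4.94, 5.75 and 5.76 (edgeR adjusted p = 3.66e-21). Both fell, as did the neuropilin Nrp1, a semaphorin receptor (log2 change −2.66 ± 0.45, SE), and Sema7a (−1.33 ± 0.24). Efna5 (1.41 ± 0.23), Efna3, another ephrin ligand (0.89 ± 0.11), and Kirrel3 (0.99 ± 0.22, edgeR adjusted p = 2.10e-03) rose. The calcineurin subunits Ppp3ca and Ppp3r1 rose by 0.87 ± 0.11 and 1.33 ± 0.21 on the log2 scale, Rims3 by 1.35 ± 0.21 and Cotl1 by 1.07 ± 0.13. Of 37 tested genes of axon guidance and adhesion 4 rose and 8 fell, and of 12 tested genes linked to activity, 9 of which stand on both lists, 3 rose and 8 fell. Of all genes tested 0.795% rose and 1.69% fell. The lists were chosen with earlier results of these data known, and most of their called genes also met the 2-fold rule in mature neurons. These counts are therefore a description and not a test of the lists.

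Genes outside the description of the mature neurons changed as well. Ckb, the brain creatine kinase, was at 22.9, 17.2, 17.5 and 20.9 against 38.2, 34.8, 31.4 and 37.4 and fell by 0.89 on the log2 scale. Rprm, reprimo, fell by 3.61, and Aldoa, the glycolytic aldolase, by 1.00. Gap43, the growth-cone protein of growing axons, was at 12.0, 14, 11.4 and 13.6 against 8.20, 9.73, 7.72 and 8.08 and rose by 0.57 ± 0.08 (SE; edgeR adjusted p = 9.15e-08). With iOSN1 neurons added to both groups, its change was −0.082 and no longer called (adjusted p = 0.882), and that of Cotl1 was 0.33 (adjusted p = 0.145). Among 24 tested genes of immature neurons and axon growth Gap43 was the only one called, and the maturity markers Omp (adjusted p = 0.778), Gng8 (0.758), Stmn1 (0.757) and Tubb3 (0.0738) were not called. The edgeR result for the zinc finger factor Tshz1 rested on few receptors: its level was 0.517, 3.27, 2.22 and 2.09 against 0.628, 0.602, 0.758 and 0.551, with overlapping ranges, and without Olfr1213 and Olfr1196 neurons its log2 change turned from 1.68 to −0.36. Leaving out this pair, which had most iOSN2 neurons (13 and 11), was chosen after seeing the data and took the count of called genes from 150 to 68, of which 62 were among the 150. Leaving out mouse 2, 3 or 4 took it to 73, 96 or 94, and DESeq2 called 46.

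**Figure D3:**
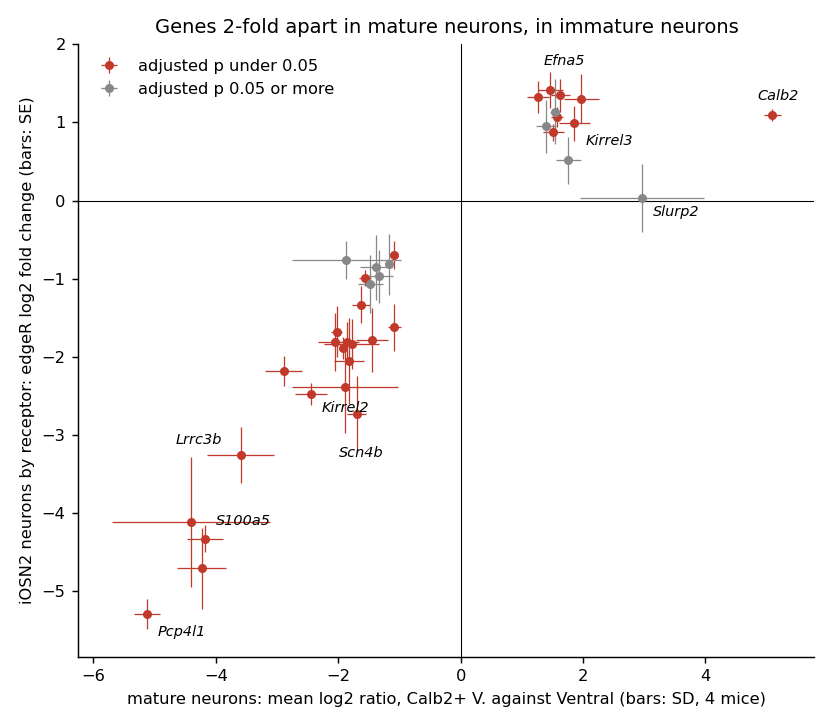
Genes at least 2-fold apart in mature neurons: the mean log2 ratio of Calb2+ V. against Ventral over 4 mice (x axis, bars SD) and the edgeR log2 fold change in iOSN2 neurons grouped by receptor (y axis, bars SE). Red points had an adjusted p under 0.05. The 12 genes above 0 on the x axis lie above 0 on the y axis and the 25 below lie below.

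Fewer neurons bore on other stages, and their values are given without a test. In early immature OSNs (iOSN1), 28 neurons with listed and 244 with Ventral receptors, Calb2 was at 29.3, 30.0, 60.9 and 34.4 against 25.7, 26.4, 23.6 and 28.9, and S100a5 at 1.30 ± 0.639 against 5.03 ± 4.70 (SD, n = 4), with overlapping ranges. Mature OSNs with more than 1 receptor above the authors' expression limit were left out of the clustering. The authors removed them as possible multiplets (more than 1 cell under 1 barcode). Among them, 14 neurons were led by a listed receptor (3, 4, 2 and 5 in mice 1 to 4) and 154 by a Ventral one. Calb2 was at 16.4 ± 4.51 in the former and 2.84 ± 1.62 in the latter. Whether these levels came from mixtures of cells was not tested. S100a5 in these cells was at 91.9 ± 51.7 against 189 ± 14.9, and neither gene's ranges overlapped. The ranges of Pcp4l1 (9.32 ± 9.72 against 15.0 ± 0.699, higher with listed receptors in mouse 3), Kirrel2, Kirrel3, Epha5, Efna5, Rims3 and Gap43 did overlap. Listed receptors led in 4.98, 12.2, 11.7 and 10.1% of iOSN2 neurons with a leading receptor and in 4.71, 4.91, 5.35 and 5.23% of mature ones (higher in 4 of 4 mice, p = 0.125, exact sign-flip permutation test). Without Olfr1213 and Olfr1196 the share was higher in 3 of 4 mice, with p = 0.25 by the same exact test.

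For 2 of the genes that differed in both stages, the RefSeq sequence from 250 bases before to 50 bases after the gene start is shown (GRCm38.p6, gene strand). The motif searched was CCCNNGGG, the core letters of sites bound by Ebf factors, which OSNs express. It reads the same on both strands. Its matches are in capitals.
Kirrel2 (chr7:30457466-30457765): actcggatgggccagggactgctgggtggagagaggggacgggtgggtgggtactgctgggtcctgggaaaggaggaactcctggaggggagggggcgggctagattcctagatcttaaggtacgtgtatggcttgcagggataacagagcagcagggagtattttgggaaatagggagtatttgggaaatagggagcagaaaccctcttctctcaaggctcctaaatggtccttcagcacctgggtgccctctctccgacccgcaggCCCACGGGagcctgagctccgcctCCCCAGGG
S100a5 (chr3:90608272-90608571): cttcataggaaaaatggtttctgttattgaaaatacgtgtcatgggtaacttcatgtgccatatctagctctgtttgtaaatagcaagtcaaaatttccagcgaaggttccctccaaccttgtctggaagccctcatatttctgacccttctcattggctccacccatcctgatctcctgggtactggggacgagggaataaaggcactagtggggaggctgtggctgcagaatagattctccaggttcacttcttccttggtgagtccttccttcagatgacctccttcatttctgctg
The Kirrel2 window held 2 matches and the S100a5 window 0, and 13.7% of 32851 windows of this kind held at least 1.

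Within the cluster, levels varied from one receptor population to another. In the 33 populations with at least 5 neurons in the cluster, Calb2 ran from 13.4 in Olfr1364 neurons through a median of 26.3 to 55.6 in Olfr142 neurons. In the 267 such populations of Ventral it ran from 0 through a median of 0 to 16.9 in Olfr195 neurons, and 30 of the 33 lay above every Ventral population. S100a5 ran from 0.402 in Olfr1221 neurons through 5.48 to 53.5 in Olfr1364 neurons, against 8.23 to 914 with a median of 187 in Ventral populations. All 33 were below that median and 21 below every Ventral population, and the median of the 33 was below the 13.7 of HBC2 cells. Over the 33 populations Calb2 and S100a5 had a Pearson's r of −0.53 and a Spearman's rho of −0.74. This is a description of points that share libraries and depth and of genes on which the cluster was drawn.

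**Figure D4:**
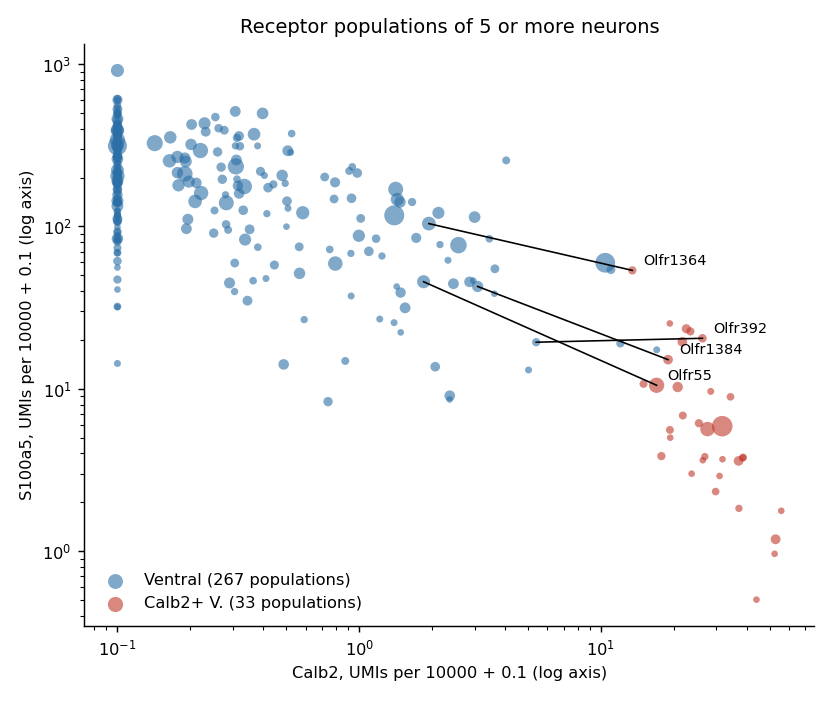
Calb2 against S100a5 in receptor populations of at least 5 neurons (UMIs per 10000 + 0.1, log axes), with the point's size growing with the number of neurons. Lines join the Calb2+ V. and Ventral neurons of the same receptor for 4 receptors split between the clusters. The Calb2+ V. populations (red) are at the lower right, and the Ventral ends of the 4 lines (S100a5 from 19.3 to 104) lie under the Ventral median of 187.

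For 4 receptors with at least 10 neurons in each cluster the same receptor could be followed on both sides. Olfr55 neurons had Calb2 at 16.9 in the cluster and 1.75 in Ventral, and S100a5 at 10.4 and 45.5. Olfr1384 neurons had Calb2 at 18.8 and 2.99, and S100a5 at 15.0 and 42.6. Olfr1364 neurons had Calb2 at 13.4 and 1.84, and S100a5 at 53.5 and 104. In Olfr392 neurons Calb2 was at 26.2 and 5.30 while S100a5 was at 20.4 and 19.3. Summed over mice, the Ventral neurons of all 4 receptors had more Calb2 than the Ventral cluster as a whole and less S100a5. In mouse 1, however, Calb2 in Ventral neurons of Olfr1364 (0.397, 11 neurons) and Olfr1384 (0, 2 neurons) was below the 0.785 of the cluster. The receptors were chosen for having neurons in the Calb2+ cluster, so this is a description.

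Genes also differed among the receptor populations inside the cluster. Receptor identity had no part in drawing the cluster, although the genes tested, Calb2 among them, did. The 5 receptors with at least 3 cluster neurons in each mouse were Olfr728 (82 neurons), Olfr55 (44), Olfr1507 (39), Olfr1490 (18) and Olfr1184 (15). In an edgeR F test over these populations, 185 of 1231 genes differed (15.0%), and 7 of the 8 tested genes of the 2-fold rule were among them. Calb2 was at 35.3 ± 8.91 in Olfr1184 neurons, 31.1 ± 4.15 in Olfr728, 27.8 ± 5.28 in Olfr1507, 20.7 ± 2.36 in Olfr1490 and 17.6 ± 6.88 in Olfr55 (SD, n = 4; edgeR adjusted p = 1.24e-05). Neighbours in this order had overlapping ranges over the 4 mice. Cotl1 was not called (adjusted p = 0.207).

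Cartpt, the precursor of a neuropeptide, was graded over the populations, at 21 ± 2.66 in Olfr1490 neurons, 10.4 ± 1.74 in Olfr55, 6.93 ± 3.92 in Olfr1184, 2.59 ± 0.904 in Olfr728 and 0.681 ± 0.482 in Olfr1507 neurons (edgeR adjusted p = 1.90e-21). Other genes were high in 1 population. Tuba4a, an alpha-tubulin, was at 5.76 ± 0.844 in Olfr1507 neurons and at most 0.137 in the other 4. Slurp2 was at 6.34 ± 2.04 in the same neurons and at most 0.0988 in the others. Cidea, a lipid droplet protein, was highest there too, at 6.04 ± 1.10, with 2.34 ± 0.739 in Olfr728 neurons. Cd55, an inhibitor of complement that also names other OSN clusters, and Pcdh10, a protocadherin, were at 4.81 ± 1.72 and 4.53 ± 1.19 in Olfr728 neurons and at most 0.0463 and 0.169 in the others.

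**Figure D5:**
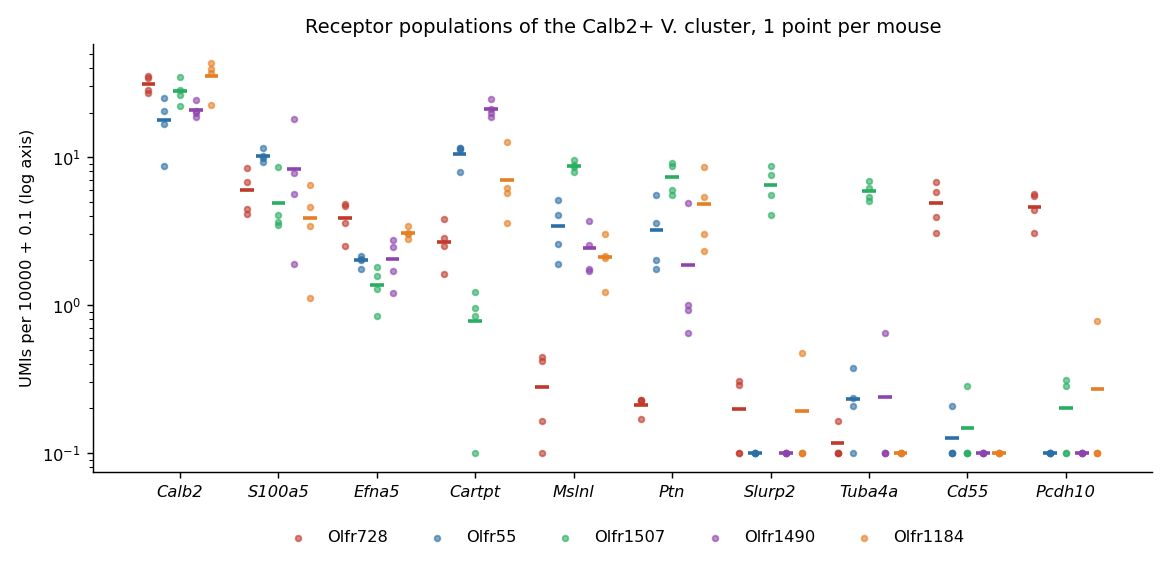
Levels of 10 genes in the 5 receptor populations of Calb2+ V. with at least 3 neurons in every mouse (UMIs per 10000 + 0.1, log axis), with 1 point per mouse and a line at the mean. Slurp2 and Tuba4a are high in Olfr1507 neurons, Cd55 and Pcdh10 in Olfr728 neurons, and Cartpt is graded with its highest level in Olfr1490 neurons, while the range of Calb2 is narrow by comparison.

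The largest population, Olfr728, was compared with all other neurons of the cluster (82 against 460). In the edgeR quasi-likelihood test 146 of 5139 genes were higher in Olfr728 neurons (2.84%) and 150 lower (2.92%). Pcdh10 was at 4.29, 2.95, 5.56 and 5.32 against 0.192, 0.168, 0.170 and 0.237 (log2 change 4.53 ± 0.19, SE; edgeR adjusted p = 9.87e-24). Ptn, the growth factor pleiotrophin, was at 0.126, 0.0686, 0.124 and 0.127 against 5.04, 4.72, 3.99 and 5.85 (−5.47 ± 0.27; edgeR adjusted p = 3.49e-21). Scgn, secretagogin, another EF-hand protein, rose by 1.97 ± 0.16 on the log2 scale, and Camk2n1, an inhibitor of the calcium-calmodulin kinase, by 2.91 ± 0.28. Of the 27 tested genes of the 2-fold rule 12 differed. S100a5, at 8.34, 4.39, 6.67 and 4.05 against 14.3, 11.5, 15.6 and 10.8, fell further (−1.16 ± 0.10, edgeR adjusted p = 3.15e-12), with both levels near those of cell types other than neurons. Kirrel2 fell too (−1.91 ± 0.26), while Kirrel3, which was higher in the cluster than in Ventral, was lower in Olfr728 neurons (0.642 ± 0.213 against 1.45 ± 0.135, edgeR adjusted p = 1.36e-04). The count of called genes fell from 296 to 187 without mouse 1 and to 107 with DESeq2.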

How the data were processed

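The authors deposited UMI counts per gene and barcode for each of 4 mice and a metadata table of cell labels. Per the submitters' processing notes, reads were counted with Cell Ranger 6.0.1 on GRCm38. The study's methods state that 3′ ends of receptor genes were redrawn and that Seurat clustered the mature neurons after integration of the mice, once with and once without receptor genes. The latter labels define the cluster, and 524 of its 542 neurons kept the label when receptors were included. No doublet caller was run here, since the authors had left out neurons with several receptors above a limit. The merged count table and the numeric columns of the metadata were not used.

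Counts of 1430 receptor genes were set aside from 55511 features, and the others were summed over the neurons of each mouse and group. Total UMIs per library were 23157467 to 32382702, and those per cluster neuron 1705 to 16423. Receptor identities of mature neurons came from the deposited labels, while immature neurons took the receptor with at least 3 UMIs and at least 3 times the next, as did mature neurons where their shares are set beside those of iOSN2, and unclustered mature neurons took the most abundant one. The 2 receptors on both lists were left out of these groups. The log2 ratios add 0.5 counts. Tests used edgeR 4.0.16 (TMM, filterByExpr, quasi-likelihood F tests, mouse as a block because both sums of a pair come from the same animal) with an adjusted p under 0.05 over all genes tested, and exact sign-flip permutation tests over the 4 mice. Seeded changes of 4-fold in simulated counts were recovered in 81.8% of cases for the iOSN2 test, 81.6% for Olfr728 and 100% for the 5 populations, while changes of 2-fold were recovered in 34.7 and 37.3% of cases for the former pair. The simulation gave all genes a dispersion of 0.05 and no differences among mice. It seeded only genes with more than 2 expected counts in the smallest sum. It therefore does not give the recovery for rarer genes or for genes that vary more among mice. Coding sequences were aligned with MAFFT 7.526 from GENCODE M21. Alternatives included DESeq2 1.42.0, other filters, thinning to 2500 UMIs (24 cluster and 493 Ventral neurons were too shallow), neurons with exactly 1 receptor, and leaving out each mouse. Named genes met the 2-fold rule, belonged to a list, or had the smallest p in a test. Genes given for their UMIs in few receptors and genes of the population plots were chosen after their values were seen. Members and gene lists were chosen with earlier results of these data known. Intervals cover counting error only. Sign-flip p-values over 4 mice are 0.125 whenever all 4 differences have the same sign, whatever their spread. The SE given for edgeR is the absolute log2 change divided by the square root of the F statistic. The edgeR p-values and SE rest on a variance estimate that borrows from all genes. For a single gene they can be smaller than its own spread among the mice would give. The result for 1 gene is not reported here.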

Additional observations from a re-analysis of the deposited data

Results flagged for a closer look

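In 40 groups of 4 values checked for 1 value far from the others, 2 stood apart, and chance gives about 1 in 20. The share of Calb2+ V. neurons with a UMI of more than 1 receptor gene was 43.6% in mouse 3 and 21.4 to 23.4% in the other mice. Ventral neurons of mouse 3 were also highest, at 42.7%, and cluster neurons of mouse 3 had the highest median depth, 6998.5 UMIs. With every neuron thinned to 2500 UMIs the cluster share was 17.4% in mouse 3 and 11.5 to 13.5% in the other mice. The log2 ratio of Kcng1 between the cluster and Ventral was −6.34 in mouse 2, whose cluster neurons had 0 UMIs of this gene.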

How the results depend on the processing

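The count of 40 genes at least 2-fold apart was 116 at a minimum level of 0.1 and 14 at 2, as more or fewer genes passed, and 43 to 49 without 1 mouse. The iOSN2 count of 150 was 46 with DESeq2, 43 with receptors at 80% or more in a cluster, 68 without Olfr1213 and Olfr1196, and 73 to 141 without 1 mouse. Without the replicate block it was 120, of which 119 were shared. When low counts were not filtered it was 164, split 21 higher and 143 lower, and with library size alone 168, split 73 and 95. The Olfr728 count of 296 was 107 with DESeq2, 187 with exactly 1 receptor detected, 187 to 300 without 1 mouse and 245 without the replicate block. The count over 5 populations, 185, was 313 with no filter, 132 to 155 without 1 mouse and 157 without the replicate block. The share of the cluster, 5.65%, was 7.98% with ventral clusters alone as the denominator and 5.55 to 5.74% without 1 mouse. Without 1 mouse the held-out difference was 69.7 to 72.0 points, that of receptor UMIs −15.7 to −13.0 and that of neurons with more than 1 receptor −7.62 to −3.79. Reversed were Gap43 with iOSN1 neurons added (−0.082, adjusted p = 0.882) and Tshz1 without Olfr1213 and Olfr1196 (−0.36, adjusted p = 0.815). The cause was not tested.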
